A study of Mus musculus with 16 samples.

Results

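Mitochondrial tRNA-Ala (mt-tRNA-Ala, anticodon TGC) was followed across every library of a mouse base-editing study, set in a model with a pathogenic mutation of its own gene. It was chosen by its row, mito_tRNA-Ala-TGC-1, in both deposited count tables: 1 of 22 mitochondrial tRNAs, among 819 transcripts in the fibroblast table and 821 in the heart table, read in all 16 libraries. mim-tRNAseq, which sequences tRNAs end to end, had been run on 8 libraries of mouse embryonic fibroblasts (MEFs) and on 8 hearts. The fibroblasts were 3 lines named Cl_1, Cl_2 and Cl_3 and 1 line named Ctrl_1, each with 2 libraries from separate passages. The hearts came from 4 mice given AAV9-DdCBE and 4 given AAV9-GFP. All 8 hearts, treated and control, were of the m.5024T mouse model. AAV9 is a viral vector used for delivery to the heart, a DdCBE is a base editor made of protein, which acts on cytosine in mitochondrial DNA, and GFP is a fluorescent control protein. In the titles the editor hearts were labelled 10X (mice 17 and 18), 5X (mouse 25) and 2X (mouse 26), and the GFP hearts 5X (mice 6 and 5) and 3X (mice 19 and 14). The labels do not explain Cl, Ctrl or X, nor give genotype by line, age or promoter, and none of these was inferred. The tables hold tRNA alone, so tissue could not be checked against cell type markers. Which base was edited, and in what share of mitochondrial DNA, was not analysed here.

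Mammalian mitochondrial DNA encodes its own set of tRNAs, which the mitochondrial ribosome uses to make a few essential proteins of the respiratory chain. Both strands are transcribed as long precursors, from which the tRNAs are cut out and then matured. mt-tRNA-Ala delivers alanine, and in the RefSeq gene order (GRCm38.p6, used for order only) its gene lies on the mitochondrial chromosome between the genes for mt-tRNA-Trp and mt-tRNA-Asn, followed by those for mt-tRNA-Cys and mt-tRNA-Tyr. Asn, Cys and Tyr are carried on the same strand as Ala, and Trp on the other. Cytosolic tRNA-Ala, which carries the same amino acid, is made from nuclear genes.

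Libraries held 1473330 to 4375975 counts in the fibroblasts and 1540287 to 3037178 in the hearts, and mitochondrial tRNAs made up 2.14% to 3.74% and 37.4% to 59.9% of them. mt-tRNA-Ala itself had 359 to 1921 counts per fibroblast library and 1322 to 19022 per heart. In the library with the smallest share of all, the AAV9-GFP heart of mouse 14, the 95% Wilson interval of that share was 0.191% to 0.213%, which covers counting error only. Where libraries of a line come from passages, p-values of fits by line measure the spread between passages and not between independently made lines. Exact tests over fibroblast libraries mix both spreads.

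mt-tRNA-Ala was scarcer in all 3 Cl lines than in Ctrl_1. It made up 0.568% and 0.538% of mitochondrial tRNA counts in the Cl_1 libraries. The Cl_2 libraries had 0.975% and 1.10%. In Cl_3 the shares were 0.546% and 0.422%, against 1.47% and 1.29% in Ctrl_1. None of the 6 Cl libraries reached the lower Ctrl_1 library. The mean share was 0.691% ± 0.276 in the Cl libraries (SD, n = 6) and 1.38% ± 0.127 in Ctrl_1 (SD, n = 2), a difference of -0.687 percentage points. The SD of the Cl libraries spans lines and passages, and that of Ctrl_1 spans passages only. An exact two-sided permutation test over libraries gave p = 0.0357, the smallest that 6 against 2 allows. It belonged to a family of 14 tests, of which none passed after Benjamini-Hochberg adjustment (here 0.0714). The test took passages of a line as separate units. With lines as units, 3 against 1, no exact p under 0.25 is possible. The same holds for the exact tests of the fibroblast ratios below.

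**Figure D1:**
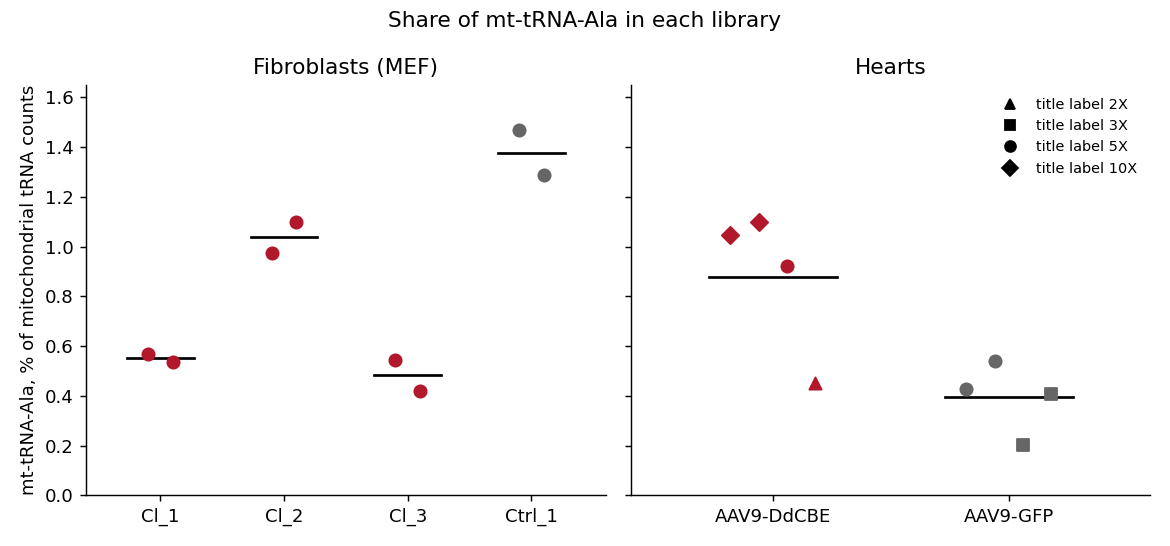
Share of mt-tRNA-Ala in mitochondrial tRNA counts (y axis, percent) in each fibroblast library by line (left) and each heart by treatment (right); points are libraries, bars are group means, and marker shape in the hearts gives the X label of the title. All 6 Cl libraries lie below both Ctrl_1 libraries, and 3 of the 4 AAV9-DdCBE hearts lie above all 4 AAV9-GFP hearts, with mouse 26 at 0.450% among them.

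As TMM-scaled counts relative to library size (CPM), the levels were 125 and 160.2 in Cl_1, 234 and 287 in Cl_2, and 127 and 104 in Cl_3, against 588 and 456 in Ctrl_1. Averaged over the 3 Cl lines, mt-tRNA-Ala fell by 1.68 in log2 (SE 0.16, edgeR adjusted p = 1.95e-04), one of 51 of 201 transcripts called lower (25.4%). Under TMM with all libraries, each line passed on its own. edgeR gave Cl_1 a log2 change of -1.87 ± 0.22 (SE) with an adjusted p of 0.00105. Cl_2 changed by -1.003 ± 0.21 (SE), adjusted p = 0.00819 in edgeR. For Cl_3 edgeR gave -2.18 ± 0.22 (SE), adjusted p = 2.67e-04. The background of transcripts called lower was 18.9% in Cl_1, 20.4% in Cl_2 and 24.4% in Cl_3. The Cl_2 call ended with libraries scaled to the totals of the 21 other mitochondrial tRNAs (log2 change -0.42, edgeR adjusted p = 0.0613) and without its first library (-0.84, edgeR adjusted p = 0.0578). With the 2 libraries of a line summed, 3 lines against 1 gave -1.60 (edgeR adjusted p = 0.105), and the exact test over lines cannot go below 0.25. In bulk RNA, fewer cells of a type and less RNA per cell cannot be told apart.

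Among the 22 mitochondrial tRNAs, mt-tRNA-Ala had the lowest log2 change in the average of the Cl lines, in Cl_1 and in Cl_3, and the third lowest in Cl_2. The other 21 had a median change of -0.68 in the mean of the Cl lines, where 12 were called lower against 25.4% of all transcripts. mt-tRNA-Phe, which carries phenylalanine, fell most of the others at -1.25 (SE 0.09, edgeR adjusted p = 8.22e-05). Under TMM the neighbour mt-tRNA-Trp, for tryptophan, fell by 0.87 (SE 0.16, edgeR adjusted p = 0.00387), and mt-tRNA-Tyr, for tyrosine, by 0.39 (SE 0.08, edgeR adjusted p = 0.00453). The log2 changes of the nearest genes on the Ala strand, mt-tRNA-Cys at -0.10 and mt-tRNA-Asn at 0.40, did not pass. With library totals and with nuclear tRNA totals, none of these calls changed. With libraries scaled to the totals of the 21 other mitochondrial tRNAs, mt-tRNA-Phe stayed called at -0.66 (edgeR adjusted p = 4.98e-04). The calls of the neighbours changed with that scaling: edgeR gave -0.28 for mt-tRNA-Trp (adjusted p = 0.0967) and 0.20 for mt-tRNA-Tyr (adjusted p = 0.232). mt-tRNA-Asn then passed at 0.96 (edgeR adjusted p = 4.88e-05) and mt-tRNA-Cys at 0.48 (edgeR adjusted p = 0.00647). Under TMM, called lower were 1 of the 7 other tRNAs of its strand, with a median change of 0.02, and 11 of the 14 on the other strand, with a median of -0.74. Scaling to the 21 other mitochondrial tRNAs put the median of all transcripts at 0.59. Under it 6 of the 7 were called higher, where 62.2% of all transcripts were, and 2 of the 14 lower, where 2.99% were. The change of mt-tRNA-Ala lay between -1.68 and -1.09 under the 4 scalings. It was the lowest of the 22 in each, an order left nearly fixed because each scaling shifts all transcripts of a library alike.

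By level, mt-tRNA-Ala stood near the end of the 22 in every fibroblast library, and further down in the Cl lines. It took rank 21 in all 6 Cl libraries, against rank 17 and rank 19 in the Ctrl_1 libraries. In the Cl libraries only mt-tRNA-Ser-GCT, a serine tRNA that lacks one arm of the usual cloverleaf, had fewer counts, at 18 to 85 per library. Next above it stood mt-tRNA-Arg, for arginine, in 5 of the 6 Cl libraries and mt-tRNA-Asn, for asparagine, in the first of Cl_1. Dividing counts by the RefSeq gene lengths gave the same rank in every library, an alternative chosen after seeing the data. In mean share, mt-tRNA-Ala and mt-tRNA-Arg stood at 0.553% ± 0.0216 and 1.43% ± 0.0132 in Cl_1 (SD, n = 2), and at 1.38% ± 0.127 and 1.43% ± 0.205 in Ctrl_1 (SD, n = 2). The same shares were 1.04% ± 0.0889 and 1.35% ± 0.0525 in Cl_2, and 0.484% ± 0.0881 and 1.26% ± 0.0261 in Cl_3 (SD, n = 2 each). In Ctrl_1 these 2 neighbours in the order lay within their spread of each other, and in each Cl line they did not. An SD of 2 libraries is a poor measure of spread.

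**Figure D2:**
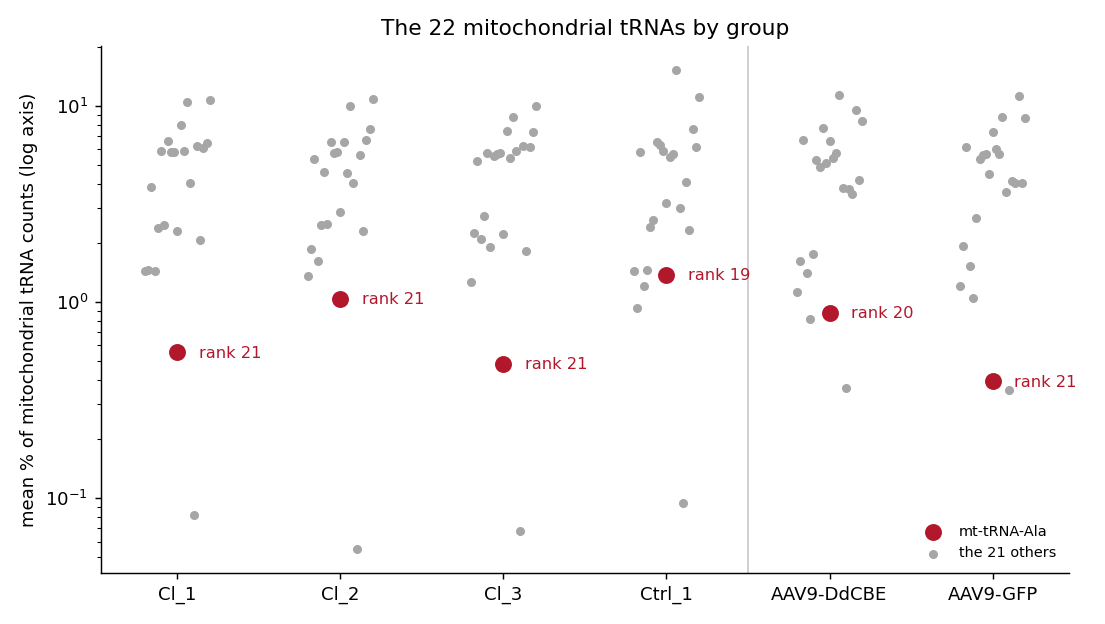
Mean share of mitochondrial tRNA counts (y axis, percent, log axis) of all 22 mitochondrial tRNAs in each group; the large points are mt-tRNA-Ala, with its rank from the most abundant, and the small points are the 21 others. Its mean share took rank 21 in each Cl line and rank 19 in Ctrl_1, and rank 20 in AAV9-DdCBE hearts and rank 21 in AAV9-GFP hearts.

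Ratios within a library do not depend on how libraries are scaled. Per 100 reads of mt-tRNA-Asn there were 47.8 and 31.4 reads of mt-tRNA-Ala in Cl_1, 57.3 and 54.6 in Cl_2, and 21.1 and 21.96 in Cl_3, against 181.8 and 122 in Ctrl_1. The mean log2 ratio was lower by a difference of -2.05, which is 4.14-fold (exact permutation p = 0.0357, adjusted 0.0714). By these ratios, reads of mt-tRNA-Ala outnumbered reads of mt-tRNA-Asn in Ctrl_1 and were outnumbered by them in every Cl library.

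Against mt-tRNA-Cys, for cysteine, the reads of mt-tRNA-Ala per 100 averaged 38.6 ± 4.55 in Cl_1, 64.2 ± 3.20 in Cl_2, 22.9 ± 3.14 in Cl_3 and 114 ± 3.36 in Ctrl_1 (SD, n = 2 each). Against mt-tRNA-Tyr they averaged 8.65 ± 0.964, 13.6 ± 1.45 and 6.64 ± 1.39 in Cl_1, Cl_2 and Cl_3, and 22.5 ± 3.29 in Ctrl_1 (SD, n = 2 each). Neither ratio overlapped between the 6 Cl libraries and Ctrl_1; the mean log2 differences were -1.57 for Cys and -1.29 for Tyr, with exact permutation p = 0.0357 and 0.0714 after adjustment for both.

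Relative to mt-tRNA-Trp the groups met. Per 100 of its reads there were 9.74 and 8.501 of mt-tRNA-Ala in Cl_1, 13.1 and 18.5 in Cl_2, and 9.14 and 6.61 in Cl_3, against 17.9 and 18.3 in Ctrl_1. The second Cl_2 library lay above both Ctrl_1 libraries, so the groups overlapped. The mean log2 difference of -0.81 had an exact permutation p of 0.179 and the same value after adjustment.

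**Figure D3:**
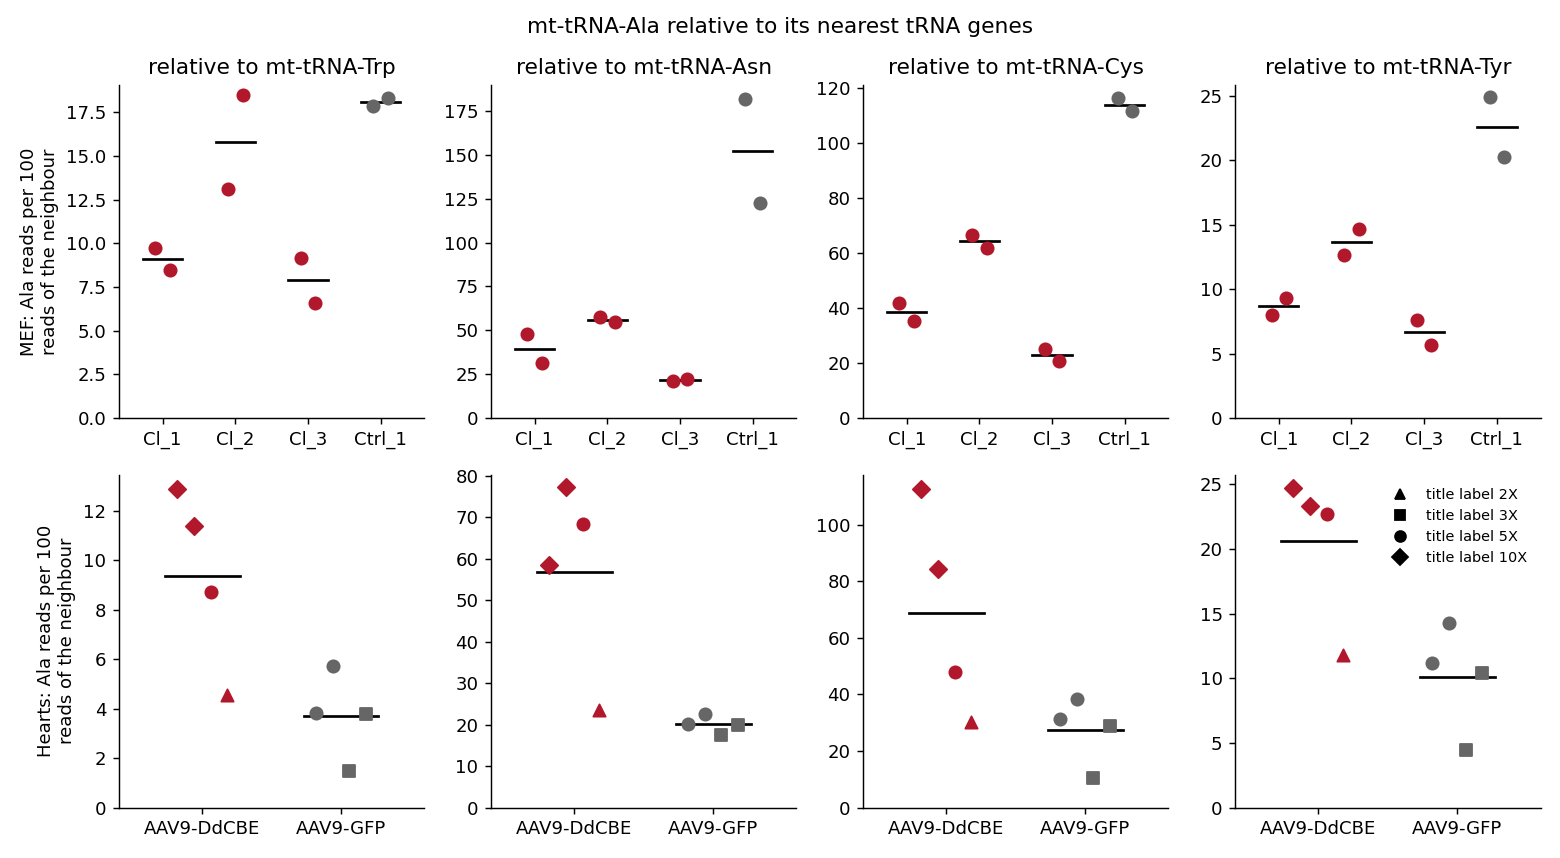
Reads of mt-tRNA-Ala per 100 reads of each of its 4 nearest tRNA genes (y axis, linear) in fibroblast libraries by line (top) and in hearts by treatment (bottom); points are libraries, bars are group means, and marker shape in the hearts gives the X label. The Asn, Cys and Tyr ratios of the Cl libraries lie below Ctrl_1 without overlap and the Trp ratio overlaps; in the hearts only the Asn ratio, of these 4, keeps the treatments apart.

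Over all 21 partners, mt-tRNA-Ala was lower in every Cl library than in both Ctrl_1 libraries relative to 17, comprising 7 of 7 on its own strand and 10 of 14 on the other. Over all pairs among the 22 mitochondrial tRNAs, 46.3% were apart in this way, in either direction. Met, Phe, Ser-GCT and Trp were the 4 partners that overlapped, and the same 4 overlapped when Cl_2 alone was set against Ctrl_1. Cl_1 alone was apart from Ctrl_1 for 21 of 21 partners (66.2% of all pairs) and Cl_3 for 20 (71.4% of all pairs), the exception being Ser-GCT; for Cl_2 the background was 62.3%. The median difference of the log2 ratio was -1.67 over the partners of its strand, from -2.35 for mt-tRNA-Glu, for glutamate, to -1.29 for mt-tRNA-Tyr. Over the partners of the other strand it was -0.93, from -1.53 for mt-tRNA-Lys, for lysine, to -0.41 for mt-tRNA-Ser-GCT. Against the geometric mean of all 21 the difference was -1.18 on the log2 scale, or 2.27-fold lower (exact permutation p = 0.0357, adjusted 0.0714).

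**Figure D4:**
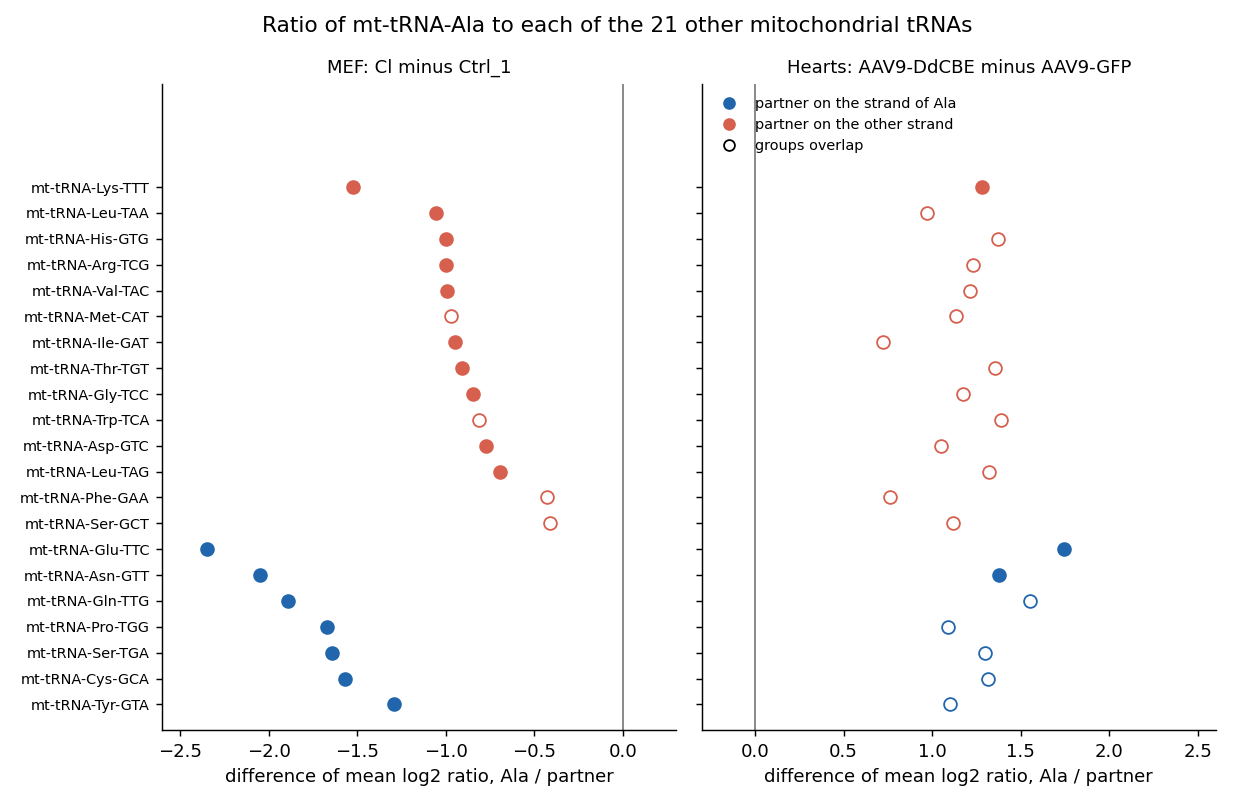
Difference of the mean log2 ratio of mt-tRNA-Ala to each of the 21 other mitochondrial tRNAs, Cl minus Ctrl_1 (left) and AAV9-DdCBE minus AAV9-GFP (right); colour gives the partner's strand and open points mark partners whose ratios overlap between groups. All 21 differences are negative in the fibroblasts, from -2.35 to -0.41, and positive in the hearts, from 0.72 to 1.74.

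Set against cytosolic tRNA-Ala, the mitochondrial tRNA was again lower in the Cl lines. There were 1.51 and 2.07 reads of mt-tRNA-Ala per 1000 reads of summed nuclear tRNA-Ala in Cl_1, 2.87 and 4.201 in Cl_2, and 1.59 and 1.55 in Cl_3, against 6.41 and 6.37 in Ctrl_1. The groups did not overlap, and the mean ratio was 3.002-fold lower (log2 difference -1.59, exact permutation p = 0.0357, adjusted 0.0714). Mitochondrial tRNAs as a whole were also a smaller part of all counts, at 2.14% to 3.01% in the Cl libraries and 3.41% and 3.74% in Ctrl_1, without overlap; the part of this in the ratio was not tested. As a share of all tRNA-Ala reads, mt-tRNA-Ala made up 0.151% to 0.418% in the Cl libraries and 0.633% to 0.637% in Ctrl_1.

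Of the 3 contrasts between Cl lines, 1 passed in edgeR with all libraries. Cl_2 had more mt-tRNA-Ala than Cl_1, by 0.87 in log2 (SE 0.21, edgeR adjusted p = 0.0338), the highest change of the 22 mitochondrial tRNAs; 13.9% of transcripts were called higher in this contrast. The other 21 ran from -0.67 to 0.39, with a median of -0.05. The call was lost without the first Cl_1 library (log2 change 0.66, edgeR adjusted p = 0.169) and without the second Cl_2 library (0.72, edgeR adjusted p = 0.167). Between Cl_3 and Cl_2 the log2 change was -1.17 (SE 0.22), the lowest of the 22, with an edgeR adjusted p of 0.0551 that missed the threshold where DESeq2 gave 2.28e-04; edgeR called 0.498% of transcripts lower there. For Cl_3 against Cl_1 it was -0.30 (SE 0.21, edgeR adjusted p = 0.326), with 8.96% of transcripts called lower. By share the order of the lines was thus Ctrl_1, Cl_2, Cl_1 and Cl_3, and the last 2 overlapped.

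In the hearts, 3 of the 4 editor animals held more mt-tRNA-Ala than any control. mt-tRNA-Ala made up 1.05% (mouse 17), 1.10% (mouse 18), 0.921% (mouse 25) and 0.450% (mouse 26) of mitochondrial tRNA counts in AAV9-DdCBE hearts. In AAV9-GFP hearts it made up 0.539% (mouse 6), 0.428% (mouse 5), 0.409% (mouse 19) and 0.202% (mouse 14). Mouse 26, labelled 2X, lay inside the AAV9-GFP range, and the other three editor hearts lay above it. The mean share was 0.879% ± 0.295 in AAV9-DdCBE hearts and 0.394% ± 0.141 in AAV9-GFP hearts (SD, n = 4 each), and the exact two-sided permutation test gave p = 0.0571 (adjusted 0.0727), where 4 against 4 allows 0.0286 at best.

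As levels, the hearts held 6623, 4315, 3389.8 and 1773 CPM in mice 17, 18, 25 and 26 given AAV9-DdCBE, against 2086, 1630.3, 1936 and 852 CPM in mice 6, 5, 19 and 14 given AAV9-GFP. The log2 change of 1.31 (SE 0.39) had an edgeR adjusted p of 0.0866, and an unadjusted p of 0.00688, and so did not pass. edgeR called 0 of 180 transcripts in this contrast (0%), with 35 at an unadjusted p under 0.05 and 27 called by DESeq2, which called mt-tRNA-Ala with a log2 change of 1.46 (adjusted p = 0.0132). The change of mt-tRNA-Ala was the highest of the 22 mitochondrial tRNAs, whose other 21 members had a median of 0.02 and ran from -0.48 to 0.57, with 0 of them at an unadjusted edgeR p under 0.05 and 0 called by DESeq2. It was the highest under all 4 scalings, an order left nearly fixed because each scaling shifts all transcripts of a library alike. The change of mt-tRNA-Ala lay between 1.16 and 1.66 under them, while the median of all transcripts lay between -0.13 and 0.13. Without mouse 26 it passed, at 1.68 (edgeR adjusted p = 0.0146), and without mouse 17 it was 0.96 (edgeR adjusted p = 0.355).

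Rank followed the same split. mt-tRNA-Ala took rank 19 of 22 in mice 17 and 18, rank 20 in mouse 25 and rank 21 in mouse 26 given AAV9-DdCBE. It took rank 21 in mice 6, 5 and 19 and rank 22, the last, in mouse 14 given AAV9-GFP. Above it in mean share over the 8 hearts stood mt-tRNA-Gln, for glutamine, and below it mt-tRNA-Ser-GCT. mt-tRNA-Ala passed mt-tRNA-Gln in 3 editor hearts: the mean shares were 0.879% ± 0.295 for Ala and 0.815% ± 0.349 for Gln in AAV9-DdCBE hearts, and 0.394% ± 0.141 and 1.05% ± 0.298 in AAV9-GFP hearts (SD, n = 4 each). The share of mt-tRNA-Gln itself was 0.607%, 0.575%, 0.751% and 1.32% in mice 17, 18, 25 and 26. In mice 6, 5, 19 and 14 given AAV9-GFP it was 1.24%, 1.22%, 1.13% and 0.606%. In AAV9-GFP hearts the share of mt-tRNA-Ala was within its spread of mt-tRNA-Ser-GCT, at 0.355% ± 0.0444 (SD, n = 4).

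The Asn ratio was the only one of the 4 neighbour ratios that did not overlap. Per 100 reads of mt-tRNA-Asn there were 58.5, 77.3, 68.3 and 23.4 reads of mt-tRNA-Ala in mice 17, 18, 25 and 26 given AAV9-DdCBE. AAV9-GFP hearts had 22.5, 20.2, 19.98 and 17.5 in mice 6, 5, 19 and 14. Mouse 26 thus stood just above the highest control, and the ratio was 2.597-fold higher in mean (log2 difference 1.38, exact permutation p = 0.0286, adjusted 0.0714). The control range was narrow here although their shares of mt-tRNA-Ala ran from 0.202% to 0.539%: mouse 14, the control with the lowest share, also had the lowest share of mt-tRNA-Asn, 1.15% against 2.05% to 2.39% in the other three AAV9-GFP hearts. It was low in mt-tRNA-Gln (0.606%, the other three at 1.13% to 1.24%) and mt-tRNA-Glu (1.40%, the other three at 2.68% to 3.44%) as well, and its library was the smallest of the hearts. Editor mice 17, 18 and 25 were also below mice 6, 5 and 19 in these shares. They had 1.79%, 1.42% and 1.35% for mt-tRNA-Asn, and 0.607%, 0.575% and 0.751% for mt-tRNA-Gln. For mt-tRNA-Glu they had 1.78%, 1.36% and 1.33%. Mouse 26 had 1.92% for Asn, 1.32% for Gln and 2.57% for Glu. The part of these partners in the ratios was not tested. Without mouse 14 the log2 change in level was 1.10 (edgeR adjusted p = 0.110).

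Relative to the other neighbours the treatments overlapped through mouse 26. The reads per 100 of mt-tRNA-Trp averaged 9.38 ± 3.64 in AAV9-DdCBE hearts and 3.71 ± 1.74 in AAV9-GFP hearts (SD, n = 4 each; log2 difference 1.39, exact permutation p = 0.0571, adjusted 0.0727). For mt-tRNA-Cys they averaged 68.8 ± 36.8 in AAV9-DdCBE hearts and 27.3 ± 11.99 in AAV9-GFP hearts (SD, n = 4 each; log2 difference 1.32, exact permutation p = 0.0857, adjusted 0.1). For mt-tRNA-Tyr they were 24.7, 23.4, 22.7 and 11.8 in mice 17, 18, 25 and 26 given AAV9-DdCBE, against 14.3, 11.2, 10.4 and 4.43 in mice 6, 5, 19 and 14 given AAV9-GFP (log2 difference 1.10, exact permutation p = 0.0571, adjusted 0.0727).

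mt-tRNA-Ala was higher in all 4 editor hearts than in all 4 controls relative to 3 of its 21 partners, namely Asn, Glu and Lys, where 8.66% of all pairs were apart. Without mouse 26, chosen after seeing the data, it was higher relative to 21 of 21, with 26.0% of all pairs apart. Leaving out mouse 14 or mouse 17 left the count at 3, with 31.6% and 9.09% of pairs apart. The median log2 difference was 1.32 over the 7 partners of its strand and 1.20 over the 14 others, and ran from 0.72 for mt-tRNA-Ile, for isoleucine, to 1.74 for mt-tRNA-Glu. Against the geometric mean of the 21 the ratio was 2.33-fold higher (log2 difference 1.22, exact permutation p = 0.0571, adjusted 0.0727).

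The ratio to cytosolic tRNA-Ala spread most among the editor hearts. There were 228, 108, 72.4 and 40.4 reads of mt-tRNA-Ala per 1000 of summed nuclear tRNA-Ala in mice 17, 18, 25 and 26 given AAV9-DdCBE, against 57.6, 37.4, 56.0 and 23.9 in mice 6, 5, 19 and 14 given AAV9-GFP. In mouse 17 it made up 18.6% of all tRNA-Ala reads, and in the same library mitochondrial tRNAs reached 59.9% of all counts, against 37.4% to 44.5% in the other 7 hearts; the part of that level in the ratio was not tested. The log2 difference of 1.16 did not pass (exact permutation p = 0.114, adjusted 0.123).

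By X label, both 10X hearts given AAV9-DdCBE lay above all 4 AAV9-GFP hearts in level, and mt-tRNA-Ala rose in them by 1.75 in log2 (SE 0.32, edgeR adjusted p = 0.00311), with 23.9% of transcripts called higher. That was again the highest of the 22, the other 21 having a median of 0.23, with 1 called higher; under the 4 scalings the change of mt-tRNA-Ala lay between 1.45 and 2.22 and the median of all transcripts between -0.44 and 0.21. The call was lost without mouse 17, at 1.41 (edgeR adjusted p = 0.0733). In either direction, edgeR called 93 of 180 transcripts in the 10X contrast, against 0 of 180 with all 4 editor hearts. The 5X and 2X editor hearts, groups of 1 in this fit, added nothing to its estimate of spread. Where both treatments had hearts labelled 5X, the shares were 0.921% in the AAV9-DdCBE heart (mouse 25) and 0.539% and 0.428% in the AAV9-GFP hearts (mice 6 and 5). No GFP heart was labelled 10X or 2X, so these labels and treatment cannot be told apart.

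Hearts and fibroblasts were counted in separate tables and are set side by side without a test. mt-tRNA-Ala made up 0.0858% to 0.626% of all tRNA counts in hearts and 0.0110% to 0.0549% in fibroblasts, ranges that did not overlap. Within mitochondrial tRNA its share was 0.202% to 1.10% in hearts and 0.422% to 1.47% in fibroblasts, which did overlap. Of all tRNA-Ala, it formed 2.34% to 18.6% in hearts and 0.151% to 0.637% in fibroblasts.

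Spread within groups was between animals in the hearts, with the 10X, 5X and 2X labels pooled in the AAV9-DdCBE group, and between passages of a line in the fibroblasts, so the tables cannot be set against each other. The pooled within-group SD of its log2 CPM was 0.70 in hearts, the largest of the 22, where the other 21 had 0.19 to 0.59. In fibroblasts it was 0.23, rank 13 of 22 from the largest, with a median of 0.28 over the others. Over all libraries its log2 CPM ranged over 2.96 in hearts, the widest of the 22 before mt-tRNA-Phe at 1.63, and over 2.49 in fibroblasts, second to mt-tRNA-Ser-GCT at 3.09. No test was made of these spreads.

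The transcripts most like it were found by the root mean square difference of log2 CPM, each centred over its 8 libraries. In fibroblasts, of 200 others, these were the nuclear tRNA-Gln-CTG-4 (0.33), mt-tRNA-Leu-TAG, for leucine (0.43), and mt-tRNA-Phe (0.45). tRNA-Gln-CTG-4 had 3.48 to 7.23 CPM in Cl libraries and 24.8 to 26.4 CPM in Ctrl_1, and mt-tRNA-Leu-TAG 447 to 769.9 CPM in Cl libraries and 1133 to 1272 CPM in Ctrl_1. The strand neighbour mt-tRNA-Asn came at rank 155. In hearts, of 179 others, the nearest were the nuclear tRNA-Ser-GCT-1 (0.48), tRNA-Val-CAC-4 (0.48) and tRNA-Gly-CCC-3 (0.52), and the first mitochondrial tRNA was mt-tRNA-Leu-TAA at rank 15 (0.65). tRNA-Gly-CCC-3 had 60.6 to 392.8 CPM in AAV9-DdCBE hearts and 61.4 to 84.9 CPM in AAV9-GFP hearts. Different transcripts led in the 2 tables, and reads of near-identical nuclear tRNAs may have been divided between their rows.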

How the data were processed

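The authors deposited raw counts per tRNA transcript, 1 table for fibroblasts and 1 for hearts. RNA was oxidised and beta-eliminated after a mildly acidic extraction and made into mim-tRNAseq libraries, per the labels' protocols. The submitters' processing notes name cutadapt 3.5 and the mouse build mm39; for the aligner and the counter, nothing is stated in the sources used here.

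Counts were fitted over whole tables in edgeR 4.0.16 (R 4.3.3; TMM, filterByExpr with minimum count 10 and minimum total 15, glmQLFit, glmQLFTest), with Benjamini-Hochberg adjustment over 201 fibroblast and 180 heart transcripts and a threshold of 0.05. DESeq2 1.42.0 was an alternative. Shares and log2 ratios were compared over libraries by exact two-sided permutation tests, judged after adjustment over all 14. Named transcripts were mt-tRNA-Ala, its 4 nearest genes, its neighbours in mean share, the 3 most alike per table and nuclear tRNA-Ala as a sum; partners at the end of a range or outside a count, and those low in mouse 14, were named after their values were seen. The members and lists were chosen with earlier results of these data known, as was the comparison by X label.

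All 16 replicate pairs within groups differed beyond sampling noise (chi-square over its degrees of freedom 93.9 to 1781). On simulated data, edgeR recovered 88% of 2-fold changes and 99% of those that were 4-fold in the comparison of Cl lines with Ctrl_1 (3.47% of calls false), and 62% and 92% for AAV9-DdCBE against AAV9-GFP (5.07% false). The simulation used the spread that edgeR itself had estimated, with as many rises as falls. It changed fewer transcripts than the 97 of 201 that edgeR called between the Cl lines and Ctrl_1. These rates need not hold for the real comparisons.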

Additional observations from a re-analysis of the deposited data

Results flagged for a closer look

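Among AAV9-DdCBE hearts, mouse 26 stood far below the other three in mt-tRNA-Ala per 100 reads of mt-tRNA-Tyr, at 11.8, a gap of 0.841 of the group's range. This was 1 of 16 group-wise checks, and chance gives such a gap in about 1 of 20. That rate takes the hearts of the group as alike, while mouse 26 was the only one labelled 2X. Between Cl lines, mt-tRNA-Ala differed for Cl_2 against Cl_1, with a log2 change of 0.87 (edgeR adjusted p = 0.0338), a call that ended without the first Cl_1 library (0.66, edgeR adjusted p = 0.169) and without the second Cl_2 library (0.72, edgeR adjusted p = 0.167).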

How the results depend on the processing

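Of 261 alternatives over all results, 249 kept direction and side of the threshold, 6 lost the call, 6 gained it and 0 reversed. All calls lost or gained were among the levels. For the 14 share and ratio tests, the adjusted exact permutation p was 0.0625 or more in every alternative. Their sample numbers left little room to pass, so keeping that side of the threshold shows little. For the levels (log2 change, edgeR adjusted p unless named), the mean of the Cl lines was -1.60 (0.105) with lines summed, which leaves fewer samples; Cl_2 against Ctrl_1 was -0.42 (0.0613) scaled to the other mitochondrial tRNAs. Cl_3 against Cl_2 passed at -1.11 (8.66e-04) with that scaling, -1.17 (1.26e-06) with no filter and -1.15 (2.28e-04) in DESeq2. AAV9-DdCBE against AAV9-GFP passed at 1.39 (0.0429) with library totals and 1.46 (0.0132) in DESeq2, within adjusted p of 0.0132 to 0.355 over its alternatives. The cause of these moves was not tested. Leaving out 1 library at a time gave the mean of the Cl lines -1.85 to -1.50, with -1.16 to -0.82 for Cl_2 against Ctrl_1, 0.66 to 1.04 for Cl_2 against Cl_1, 0.96 to 1.68 for the hearts and 1.41 to 2.06 for the 10X hearts. The 14 share and ratio tests passed after adjustment in 0 cases. Judged without adjustment, 7 passed; of their 70 alternatives 27 then missed 0.05, 18 of them because the samples left (3 lines against 1, or 1 Ctrl_1 library) allow no smaller p than 0.143, and 5 of the 65 alternatives of the others fell under it, 4 of them without mouse 26.

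Same-numbered libraries of different lines deviated from their line means with weak positive correlations (0.07 to 0.25, 4 of 6 over 0.1). The main fits did not pair them. With the replicate block the changes against Ctrl_1 were -1.68 in the mean of the Cl lines, -1.87 for Cl_1, -1.004 for Cl_2 and -2.18 for Cl_3; between lines they were 0.87 for Cl_2 against Cl_1, -0.30 for Cl_3 against Cl_1 and -1.17 for Cl_3 against Cl_2, and no call changed. No paired analysis was possible for the hearts because their mouse numbers are not shared between groups.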
